A study of Homo sapiens with 2 samples.

Results

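MHC class I molecules carry peptides from inside the cell to its surface, where CD8 T cells read them. The peptides are cut by the proteasome, moved into the endoplasmic reticulum by the TAP1 and TAP2 transporter and bound by a class I heavy chain together with beta-2-microglobulin. Interferons and NLRC5, a transactivator that sits on class I promoters, raise the expression of this machinery. Under interferon the catalytic proteasome subunits PSMB5, PSMB6 and PSMB7 are exchanged for PSMB8, PSMB9 and PSMB10, which together form the immunoproteasome.

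This group was made up of 9 named genes out of 62699 in the count table. They were the heavy chain genes HLA-B and HLA-C, the light chain gene B2M, the transactivator gene NLRC5, the transporter genes TAP1 and TAP2, and the immunoproteasome genes PSMB8, PSMB9 and PSMB10. All 9 were found by symbol. Of these, 8 reached 1 CPM before scaling (1 count per 1000000 counts of the library) in at least 1 library. The exception was TAP2. The same level was asked for in all 14352 genes tested. Levels in CPM printed for genes below are per 1000000 scaled counts.

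Polyadenylated RNA was sequenced from HCC1954, an established breast cancer cell line that is HER2-positive per the labels. The comparison was between 1 library labelled ASO-NC and 1 labelled ASO-1235, in a series on the long non-coding RNA LINC01235. The labels give both names as genotypes, do not spell them out and state no dose, time or sequence for either. The title of the ASO-1235 sample begins with Si, so the labels differ in how they name what the cells were given, and the genotype was followed here. The libraries held 48092494 and 37916307 counts. LINC01235 itself was at 1337 counts with ASO-NC and 0 with ASO-1235, at least 373-fold lower if 3 counts stand in for the 0. All 7 epithelial and HER2 markers checked were present, with ratios between libraries from 0.894 to 1.07.

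With 1 library per group, no difference below has a replicate check and no p-value is given. Ratios are ASO-1235 over ASO-NC after scaling by TMM, a method that centres the bulk of genes. Their 95% intervals are exact (Clopper-Pearson) and cover counting error only. Because 67.5% and 64.0% of counts from 1 to 1000 were even numbers, both mates of a read pair may have been counted, so intervals on halved counts are also given. A gene was called lower or higher at 1.5-fold when its interval also excluded 1. In these bulk samples, fewer cells expressing a gene and less RNA per cell cannot be told apart.

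The upstream sequences of 6 of these genes are shown first, since control elements of the pathway are known in such regions and since the genes differed in direction. They are the 250 bases before the RefSeq start (GRCh38.p14), read 5′ to 3′ on the strand of the gene. Capitals mark matches, on either strand, to any of 5 motifs: the interferon-stimulated response element (ISRE) as GAAANNGAAA, the gamma-activated site (GAS) as TTCNNNGAA, the cyclic AMP element half-site as TGACG, the CCAAT box that NF-Y binds as CCAAT, and the kappa B consensus of NF-kB. HLA-B lies at chr6:31357180-31357429, HLA-C at chr6:31272093-31272342 and TAP1 at chr6:32853705-32853954, all on the minus strand. PSMB9 lies at chr6:32853942-32854191 and B2M at chr15:44711267-44711516, both on the plus strand, and PSMB10 at chr16:67936851-67937100 on the minus strand.
HLA-B: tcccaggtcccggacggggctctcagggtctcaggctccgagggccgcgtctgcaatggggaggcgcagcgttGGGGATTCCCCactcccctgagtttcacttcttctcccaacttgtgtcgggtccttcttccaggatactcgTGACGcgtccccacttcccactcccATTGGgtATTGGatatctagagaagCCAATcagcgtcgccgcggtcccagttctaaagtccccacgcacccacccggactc
HLA-C: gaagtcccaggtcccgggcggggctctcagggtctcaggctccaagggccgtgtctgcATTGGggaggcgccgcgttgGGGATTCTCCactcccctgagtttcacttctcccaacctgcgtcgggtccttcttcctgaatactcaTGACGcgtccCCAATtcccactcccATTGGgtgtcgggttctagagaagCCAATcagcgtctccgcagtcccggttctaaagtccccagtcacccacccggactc
B2M: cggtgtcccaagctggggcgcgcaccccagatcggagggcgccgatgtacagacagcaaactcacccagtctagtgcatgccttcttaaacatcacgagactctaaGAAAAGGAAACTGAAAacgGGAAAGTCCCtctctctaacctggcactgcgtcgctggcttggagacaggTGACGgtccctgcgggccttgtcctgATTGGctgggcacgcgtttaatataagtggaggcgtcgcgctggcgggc
TAP1: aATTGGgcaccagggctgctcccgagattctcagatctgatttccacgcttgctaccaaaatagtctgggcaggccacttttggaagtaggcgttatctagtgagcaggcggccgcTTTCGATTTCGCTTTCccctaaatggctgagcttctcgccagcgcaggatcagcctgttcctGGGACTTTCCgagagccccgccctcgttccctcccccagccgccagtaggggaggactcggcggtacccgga
PSMB9: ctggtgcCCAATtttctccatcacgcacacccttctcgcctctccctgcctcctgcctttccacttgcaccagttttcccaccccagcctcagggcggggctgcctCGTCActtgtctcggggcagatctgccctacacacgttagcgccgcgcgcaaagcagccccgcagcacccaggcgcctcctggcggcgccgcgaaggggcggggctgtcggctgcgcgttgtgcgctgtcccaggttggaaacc
PSMB10: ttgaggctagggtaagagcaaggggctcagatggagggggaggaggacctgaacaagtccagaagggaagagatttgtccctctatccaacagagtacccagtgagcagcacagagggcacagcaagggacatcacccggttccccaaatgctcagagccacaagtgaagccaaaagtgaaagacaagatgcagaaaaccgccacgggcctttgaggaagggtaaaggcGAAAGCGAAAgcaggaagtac

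Of the 9 genes, 8 had an upstream window in the RefSeq table, and NLRC5 had no window there. The heavy and light chain genes shared a layout. HLA-B, HLA-C and B2M each held a TGACG match between positions −106 and −71 from the start and a CCAAT match, in either orientation, closer to the start. The windows of HLA-B and HLA-C were identical at 226 of 246 positions aligned without a gap. The ISRE letters were found upstream of B2M, TAP1, TAP2 and PSMB10, that is in 4 of the 8 genes with a window. These letters stand in 3.02% of all 35116 windows. In B2M and in TAP1 they matched at 2 overlapping positions. The kappa B consensus was found for 4 of the 8 (HLA-B, HLA-C, B2M and TAP1; 5.21% of all windows), the TGACG letters for 6 (21.2%), the CCAAT letters for 5 (32.0%) and the GAS letters for 2 (TAP1 and PSMB8, each at the second of its 2 listed starts; 6.57%). TAP1 and PSMB9 are divergent genes, and 487 bases separated the nearest pair of their RefSeq starts. The exact letters were set after these windows had been read, and TAP1 and PSMB8 have 2 windows each, so the shares over all windows are given for orientation and not as a comparison. A match describes these letters only. Elements that depart from the letters in any base were not marked. A window without a match, such as those of HLA-B and HLA-C for the ISRE, may therefore still hold the element.

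Class I heavy and light chain RNA was lower in the ASO-1235 library. HLA-C, whose product presents peptides and is also read by natural killer cells, was counted 18636 times with ASO-NC (399 CPM) and 10867 times with ASO-1235 (278 CPM). Its ratio was 0.697 (0.681 to 0.714, and 0.674 to 0.721 on halved counts). HLA-B, the other classical heavy chain gene of the group, had 2442 and 1378 counts (52.3 and 35.3 CPM), which gives 0.675 (0.631 to 0.721). B2M, the light chain shared by class I molecules, had 10598 and 6779 counts (227 and 174 CPM), which gives 0.765 (0.742 to 0.789). All 3 were therefore lower by more than counting error, and none reached 1.5-fold, with HLA-B at 1.48-fold lower. The 2 heavy chain genes kept their proportion, at 763 HLA-C counts per 100 HLA-B counts with ASO-NC and 789 with ASO-1235, a change of 1.03 (0.963 to 1.11). Against B2M, the direction of the heavy chains depended on the treatment of sequence composition. HLA-B stood at 23.0 and 20.3 counts per 100 B2M counts, a change of 0.882 (0.820 to 0.949), and HLA-C at 176 and 160, a change of 0.912 (0.877 to 0.948). With the fitted trend on GC content and length taken out, both lay above 1, at 1.10 for HLA-B and 1.15 for HLA-C. These within-library proportions need no scaling between libraries, and this set of pairs was chosen after the values were seen.

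NLRC5, the transactivator, was at 509 counts (10.9 CPM) with ASO-NC and at 248 (6.35 CPM) with ASO-1235. The ratio was 0.583 (0.499 to 0.679, and 0.466 to 0.725 on halved counts), 1.72-fold lower. Of all genes tested, 1.37% had a lower ratio than NLRC5, and 0.767% did among those in the same of 5 equal bins of mean expression.

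Of the transporter genes, TAP1 had a ratio above 1 and TAP2 was near the detection limit. TAP1, which encodes a subunit of the peptide transporter, was at 1038 counts (22.2 CPM) with ASO-NC and 977 (25.02 CPM) with ASO-1235, a ratio of 1.13 (1.03 to 1.23). On halved counts its interval included 1 (0.993 to 1.28). TAP2, which encodes its partner, had 27 and 16 counts (0.578 and 0.410 CPM), too few to give a direction, with a ratio of 0.709 (0.357 to 1.36). TAP2 shares 32.3% of its exon bases with another annotated gene on the same strand, which had 0 counts in both libraries, and how reads on shared bases were assigned is not given in the sources used here.

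The immunoproteasome genes went both ways. PSMB8, the counterpart of PSMB5, was at 163 counts (3.49 CPM) with ASO-NC and 81 (2.07 CPM) with ASO-1235, a ratio of 0.594 (0.449 to 0.780, and 0.397 to 0.876 on halved counts). PSMB10, the counterpart of PSMB7, had 368 and 175 counts (7.88 and 4.48 CPM), a ratio of 0.569 (0.472 to 0.683, and 0.436 to 0.737 on halved counts). PSMB9, the counterpart of PSMB6, had 92 and 105 counts (1.97 and 2.69 CPM), a ratio of 1.36 (1.02 to 1.83). So PSMB8 and PSMB10 were 1.68-fold and 1.76-fold lower, while PSMB9 was higher on the counts as deposited and included 1 on halved counts (0.901 to 2.07). The difference within the family was larger than counting error: PSMB8 stood at 177 counts per 100 PSMB9 counts with ASO-NC and at 77.1 with ASO-1235, a change of 0.436 (0.290 to 0.653, and 0.240 to 0.774 on halved counts). PSMB10 against PSMB9 changed by 0.417 (0.295 to 0.590). Both of these pairs were likewise chosen after the values were seen.

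**Figure D1:**
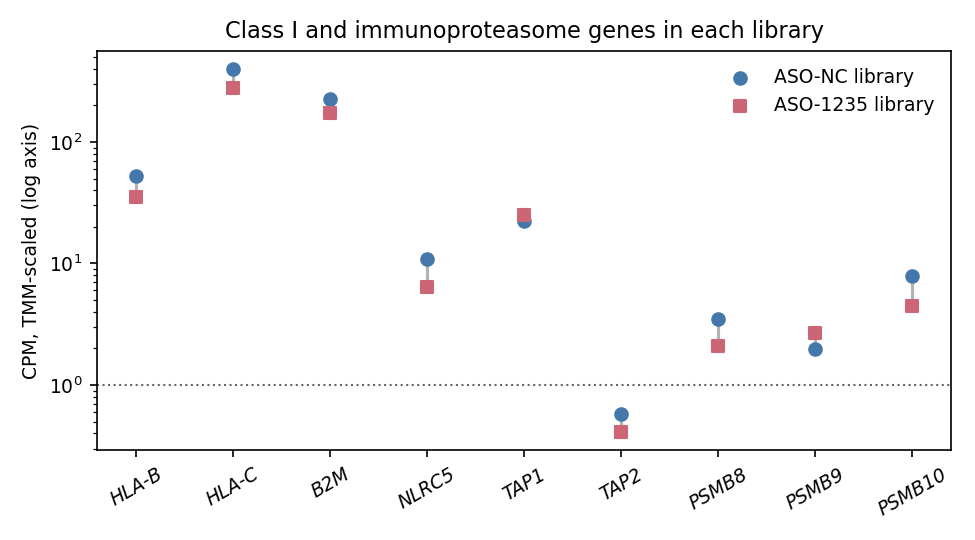
TMM-scaled CPM on a log axis for each of the 9 genes, with circles for the ASO-NC library and squares for the ASO-1235 library, 1 library each, and a dotted line at 1 CPM. The squares lie below the circles for all genes except TAP1 (22.2 and 25.02 CPM) and PSMB9 (1.97 and 2.69 CPM), and TAP2 lies under the line in both libraries.

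Of the 8 genes at 1 CPM, 3 were called lower at 1.5-fold (NLRC5, PSMB8 and PSMB10), where 2.95% of all genes tested were called lower. The same 3 were called with intervals on halved counts (2.0% of all genes). None of the 8 was called higher, against 6.4% of all genes tested. Ratios below 1 were found for 6 of the 8, against 49.9% of all genes. An interval wholly below 1 was found for 6 of the 8 (29.8% of all genes), and also for 6 on halved counts (23.0%). An interval wholly above 1 was found for 2, TAP1 and PSMB9 (29.7%), and for 0 on halved counts (22.8%). The median log2 ratio of the 8 was −0.54, beside 0.001 over all genes tested. The genes are regulated together and are not independent of each other.

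**Figure D2:**
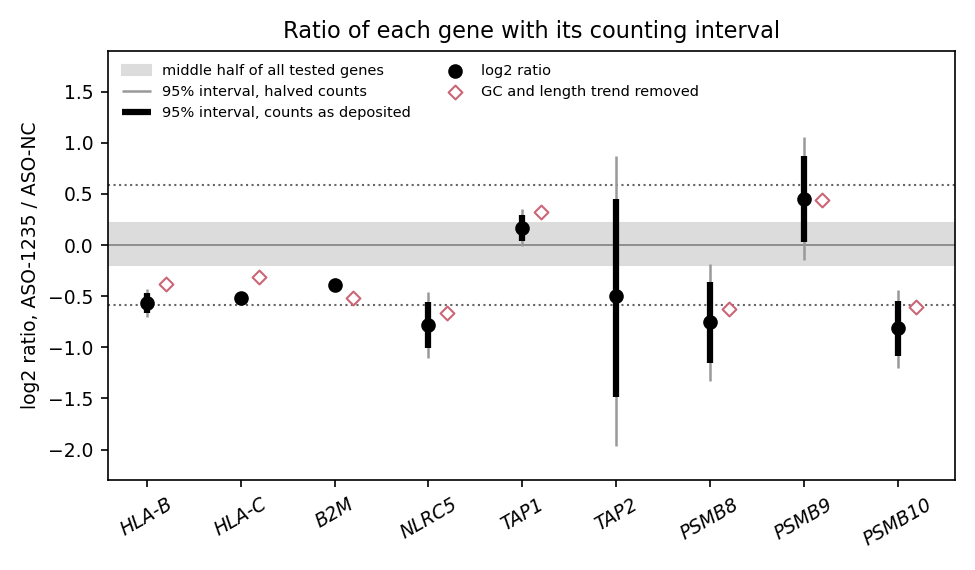
Log2 ratio of ASO-1235 over ASO-NC for each gene (filled circles), with 95% counting intervals on the counts as deposited (thick) and halved (thin), dotted lines at 1.5-fold, and the interquartile range of all tested genes in grey. Open diamonds are the values with the fitted GC and length trend taken out, not computed for TAP2. HLA-B, HLA-C, B2M, NLRC5, PSMB8 and PSMB10 lie below the grey band, TAP1 within it and PSMB9 above it.

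The members were also set beside genes of like abundance. In the same bin of expression, 0.488% of genes had a lower ratio than HLA-B, 0.592% a lower one than HLA-C, 3.83% than B2M and 0.627% than PSMB10. For PSMB8 it was 6.44%, in the bin of lowest expression, where log2 ratios had an SD of 0.726 against 0.222 in the bin of highest expression. TAP1 and PSMB9 lay inside the bulk, with 74.0% and 71.4% of the genes of their bins below them.

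The ratio also moved with sequence composition across all genes, and these values are given beside the members. The longest annotated transcripts of HLA-C and PSMB10 have GC contents of 62.7% and 60.1%, and those of B2M and PSMB9 of 40.6% and 46.9%, where the median of the genes tested was 48.2%. With the fitted trend on GC content and length taken out, the ratio was 0.803 for HLA-C, 0.770 for HLA-B and 0.698 for B2M. It was 0.629 for NLRC5, 0.645 for PSMB8 and 0.655 for PSMB10, all past 1.5-fold. For TAP1 and PSMB9 the log2 ratio was then 0.33 and 0.44. The direction of each was as before, and the 3 calls were held.

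Per kilobase of the longest annotated transcript, levels in RPKM, a scale on which genes can be compared, ranged widely. HLA-C was at 212 RPKM with ASO-NC and 148 with ASO-1235, B2M at 94.4 and 72.2, and HLA-B at 33.8 and 22.8. TAP1 was at 7.51 and 8.46 and PSMB10 at 6.47 and 3.68. NLRC5 (1.60 and 0.931), PSMB8 (1.47 and 0.874) and PSMB9 (0.736 and 1.005) lay close together, and PSMB9 lay below both of the others with ASO-NC and above both with ASO-1235. The order with ASO-1235 rests on 105 counts of PSMB9, 81 of PSMB8 and 248 of NLRC5. It has no interval and is not a settled rank. TAP2 was lowest in both libraries. The longest transcript may not be the one expressed, so these levels are approximate.

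The constitutive subunits differed less between the libraries than their inducible counterparts. PSMB5 had 5154 and 3940 counts, which gives 0.914 (0.877 to 0.953), PSMB7 a ratio of 0.889 (0.856 to 0.923) and PSMB6 a ratio of 0.805 (0.760 to 0.853). All 3 lay below 1 (49.9% of all genes tested) and none passed 1.5-fold (2.95% of all genes were called lower and 6.4% higher). Per 100 counts of PSMB5 there were 3.16 counts of PSMB8 with ASO-NC and 2.06 with ASO-1235, a change of 0.650 (0.490 to 0.857). Per 100 counts of PSMB7 there were 5.64 and 3.61 counts of PSMB10, a change of 0.640 (0.529 to 0.771). Per 100 counts of PSMB6 there were 3.11 and 5.28 counts of PSMB9, a change of 1.69 (1.26 to 2.28). On halved counts these intervals were 0.424 to 0.947, 0.491 to 0.839 and 1.10 to 2.58, so each of the 3 excluded 1. Over the summed counts of the 3 constitutive subunits, the changes were 0.675 for PSMB8, 0.646 for PSMB10 and 1.55 for PSMB9. Thus 2 inducible subunits were lower and 1 was higher relative to the subunit each replaces.

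**Figure D3:**
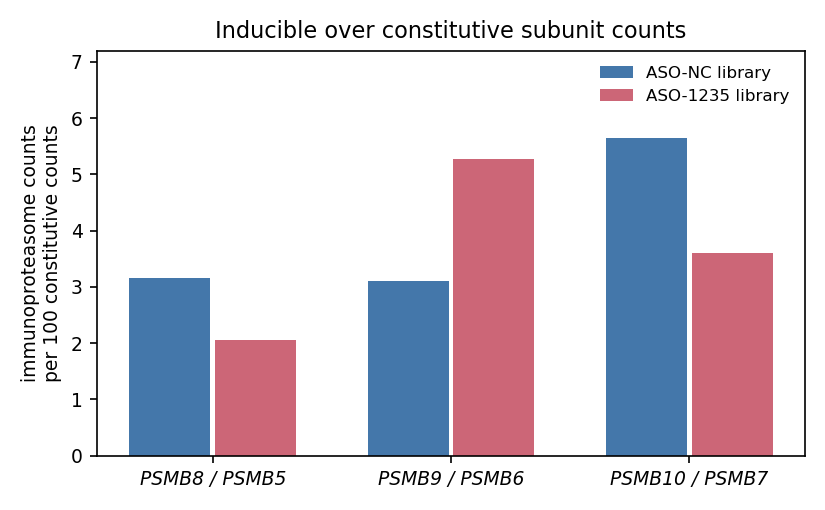
Counts of each immunoproteasome subunit gene per 100 counts of the constitutive subunit gene it replaces, not corrected for length, as bars from 0 for the ASO-NC and the ASO-1235 library. The ASO-1235 bar is the lower for PSMB8 (3.16 and 2.06) and PSMB10 (5.64 and 3.61) and the higher for PSMB9 (3.11 and 5.28).

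Among the proteasome activators, PSME1 and PSME2, the interferon-inducible pair that forms PA28, had ratios of 0.773 (0.741 to 0.806) and 0.776 (0.744 to 0.810). PSME4, a nuclear activator, was at 1.13 (1.09 to 1.18), and the assembly chaperone gene POMP was at 1.02 (0.943 to 1.09). None of the 6 genes of this list passed 1.5-fold, where 2.95% of all genes tested were called lower and 6.4% higher.

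Other class I genes were few above 1 CPM. HLA-E, whose product presents leader peptides of other class I chains to natural killer receptors, had 1284 and 764 counts, which gives 0.712 (0.650 to 0.779). MICA, a stress ligand of the receptor NKG2D, was the 1 member of this list called lower (2.95% of all genes tested). It had 103 and 50 counts, a ratio of 0.580 (0.406 to 0.821). MR1, which presents vitamin metabolites, was at 0.966 (0.838 to 1.11). The other 6 of the 9 listed genes lay under 1 CPM before scaling and were not tested, among them HLA-G with 0 counts in both. HLA-F lay at this limit, with 47 and 12 counts (1.01 and 0.307 CPM after scaling). Its ratio was 0.305 (0.147 to 0.585, and 0.102 to 0.769 on halved counts).

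Loading and trimming genes shifted by smaller amounts in the median. Of 9 genes, 6 had ratios below 1, against 49.9% of all genes tested. In either direction 0 passed 1.5-fold, where 2.95% of all genes were called lower and 6.4% higher. With so few genes, 0 calls lie close to these shares. TAPBP, the tapasin gene that bridges TAP and the heavy chain, had 1752 and 1206 counts, which gives 0.823 (0.764 to 0.886). CALR, a chaperone of the loading complex, was at 0.801 (0.783 to 0.819) and ERAP1, which trims peptides, at 0.804 (0.701 to 0.921). The chaperone gene CANX was at 1.05 (1.03 to 1.07) and the protease genes SPPL2A and IDE at 1.15 (1.04 to 1.27) and 1.08 (1.03 to 1.13). With the fitted trend on GC content and length taken out, CANX, SPPL2A and IDE lay below 1, at 0.956, 0.978 and 0.931. TAPBP was then at 0.912, CALR at 0.874 and ERAP1 at 0.705. The median log2 ratio of this list was −0.14 with the trend taken out, beside −0.45 for the members. TAP1 stood at 59.2 counts per 100 TAPBP counts with ASO-NC and 81.0 with ASO-1235, a change of 1.37 (1.22 to 1.54), a pair chosen after the values were seen.

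The factors that assemble on class I promoters went both ways. Of 9 listed genes, 5 had ratios below 1 and 4 above, near the 49.9% of all genes tested that lay below 1. Their median log2 ratio was −0.09. None passed 1.5-fold, where 2.95% of all genes were called lower and 6.4% higher. RFX5, a subunit of the RFX complex through which NLRC5 is recruited, was at 0.906 (0.838 to 0.979), an interval that included 1 on halved counts (0.811 to 1.01). RFXANK was lowest at 0.844 (0.760 to 0.936), and CREB1 and ATF1 were highest at 1.29 (1.22 to 1.36) and 1.24 (1.11 to 1.39). With the fitted trend on GC content and length taken out, these lay closer to 1. CREB1 was then at 1.06, ATF1 at 1.05 and RFXANK at 0.972. CIITA, the class II counterpart of NLRC5, had 327 and 246 counts, a ratio of 0.900 (0.759 to 1.06).

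Of 11 genes of interferon and NF-kB signalling, 5 had ratios below 1 and 6 above, where 49.9% of all genes tested lay below 1. None passed 1.5-fold (2.95% of all genes were called lower and 6.4% higher). STAT2, which carries interferon signals to the nucleus, was at 0.737 (0.699 to 0.778), and its partner gene IRF9 at 0.754 (0.497 to 1.13) from 65 and 41 counts. IRF1, a factor that acts on class I, TAP1 and PSMB9 promoters, was at 1.09 (0.976 to 1.22). The interferon gamma receptor gene IFNGR1 was highest at 1.33 (1.23 to 1.44), followed by JAK2 at 1.21 (0.892 to 1.64).

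Of 11 MHC class II genes, 4 reached 1 CPM. CD74, the invariant chain, was at 0.772 (0.673 to 0.884) from 544 and 351 counts, HLA-DQB1 was at 0.918 (0.801 to 1.05) and HLA-DRB1 at 0.928 (0.767 to 1.12). HLA-DMA, a peptide exchange factor, was the 1 member called higher (6.4% of all genes), at 2.59 (1.66 to 4.14) from 30 and 65 counts. It reached 1 CPM with ASO-1235 alone (0.642 and 1.66 CPM), so it entered the test through the library in which it is high.

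**Figure D4:**
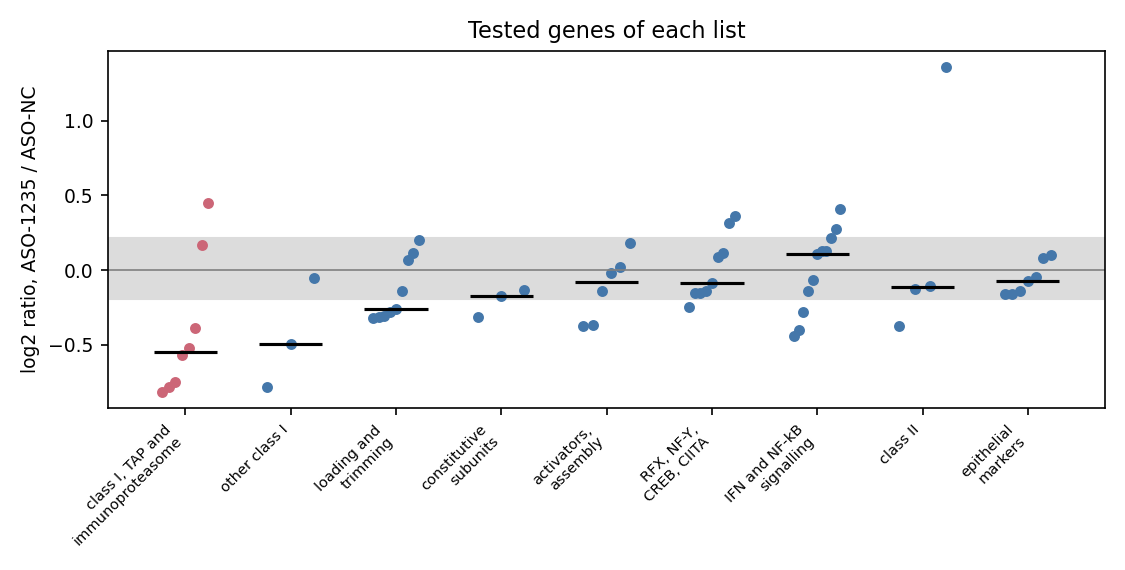
Log2 ratio of ASO-1235 over ASO-NC for every gene at 1 CPM in each list (points, 1 gene each), with the list median as a bar and the interquartile range of all tested genes in grey. The 8 class I, TAP and immunoproteasome genes, in red, have a median of −0.54, and the 11 interferon and NF-kB signalling genes a median of 0.11.

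White blood cells express the immunoproteasome without induction, so their markers were counted too. Of 11 immune cell markers, 2 reached 1 CPM, LYZ with 98 and 44 counts and ITGAM with 61 and 72. LYZ was called lower (2.95% of all genes tested), at 0.537 (0.367 to 0.774), in the same direction as PSMB8 and PSMB10. The part of LYZ-expressing cells in their ratios was not tested. ITGAM was at 1.41 (0.990 to 2.02). The 11 together came to 4.07 CPM with ASO-NC and 3.89 CPM with ASO-1235, and 4 were at 0 counts in each library. The pan-leukocyte gene PTPRC had 0 and 8 counts, the T cell gene CD3E 0 and 4, and the natural killer cell gene NKG7 0 in both.

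By position in GENCODE 29 on GRCh38, 6 of the 9 genes lie in the MHC on chromosome 6 and all 9 are annotated as protein-coding. HLA-C (ENSG00000204525.18) spans 31268749 to 31272130 and HLA-B (ENSG00000234745.14) 31269491 to 31357188, a span that reaches into HLA-C through a long transcript. TAP2 (ENSG00000204267.19, 32821833 to 32838780), PSMB8 (ENSG00000204264.12, 32840717 to 32844703), PSMB9 (ENSG00000240065.8, 32844136 to 32859585) and TAP1 (ENSG00000168394.13, 32845209 to 32853978) lie in 1 cluster, in which the annotated span of PSMB9 contains TAP1 and overlaps the end of PSMB8. B2M (ENSG00000166710.23) lies on chromosome 15 from 44711487 to 44718877. NLRC5 (ENSG00000140853.17) and PSMB10 (ENSG00000205220.12) lie on chromosome 16, from 56989485 to 57083531 and from 67934502 to 67937087. Thus within 1 small cluster PSMB8 was lower, while its neighbours TAP1 and PSMB9 had ratios above 1. On halved counts the intervals of TAP1 (0.993 to 1.28) and PSMB9 (0.901 to 2.07) included 1. TAP2 of the same cluster had too few counts to give a direction.

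Several of these counts are uncertain because genes share bases. PSMB10 shares 34.8% of its exon bases with a protein-coding gene on the same strand, which had 69 and 64 counts. PSMB8 shares 20.6% of its exon bases with the opposite-strand gene PSMB8-AS1 and 4.64% with PSMB9, and TAP1 shares 9.49% with PSMB8-AS1, which had 0 counts in both libraries. Of the windows of 50 bases in the longest transcript, 2.54% of those of HLA-B and 6.39% of those of HLA-C occurred in a transcript of another gene. For PSMB10 this share was 38.9%, for TAP2 35.8% and for TAP1 1.07%, and for B2M, NLRC5, PSMB8 and PSMB9 it was 0. Windows were compared in the direction of the transcript only, so bases shared with an opposite-strand gene do not appear in these shares. HLA-B shares 17.8% of its exon bases with an opposite-strand pseudogene, which had 0 counts in both libraries. B2M and NLRC5 share no exon base with another annotated gene, and they were lower at ratios of 0.765 and 0.583. The part of shared bases in the ratios of the other genes was not tested.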

How the data were processed

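The authors deposited raw counts per gene for 1 ASO-NC and 1 ASO-1235 library of HCC1954 cells, with no normalization visible in the values. STAR 2.7.11a, featureCounts 2.0.6 and hg38 appear by name, per the submitters' processing notes. Which annotation release was counted, whether strand was used and how mates and shared bases were treated is not given in the sources used here. All 62699 gene IDs with counts matched a symbol, and 1 ID without counts was left out.

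Genes with at least 1 CPM in 1 library, before TMM scaling, were tested. TMM factors came from edgeR 4.0.16 (R 4.3.3), 0.971 for ASO-NC and 1.03 for ASO-1235, and edgeR served for scaling alone. Ratios have Clopper-Pearson intervals given the sum of both counts, and proportions of 2 genes have conditional exact odds ratio intervals. Without molecular identifiers, PCR copies count as separate reads, which no interval covers. Log2 ratios used a prior count of 0.5. The trend on GC content and length was fitted with splines of 5 degrees of freedom each in a robust regression (statsmodels 0.14.6) on the 97.7% of tested genes that have both values. Alternatives were DESeq2 1.42.0 size factors, upper quartile and total count for scaling, halved counts, and other minimum levels, folds and intervals.

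The 9 genes and the lists were chosen with earlier results of these data known. The genes named were the 9 members, their direct partners, and from each other list the genes past 1.5-fold and those with the highest and lowest ratios, of which a part is given and some are not reported here. Upstream sequences are from RefSeq, and the motifs are textbook elements whose exact letters were set after the windows had been read.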

Additional observations from a re-analysis of the deposited data

How the results depend on the processing

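The members called lower at 1.5-fold were NLRC5, PSMB8 and PSMB10 under DESeq2 size factors, upper quartile, total count with or without mitochondrially encoded genes, halved counts, the Wilson interval and removal of the GC and length trend. At 2-fold 0 members were called lower. With a ratio of 0.8 as the limit 6 were called lower, and with a limit of 25% higher 1 was called higher, PSMB9. TMM over all genes of the table, an alternative chosen after the data were seen, gave 4, with HLA-B added, and a minimum of 5 CPM left 2, since PSMB8 and PSMB9 lie under it. The share of all genes called is not given at these other folds, scalings and minimum levels. The counts of members at these settings therefore have no background to be read against. The median log2 ratio of the members ran from −0.56 to −0.45, and no member changed direction under another scaling, halved counts or removal of the trend, which was not computed for TAP2. Removal of the trend, chosen for proportions after the data were seen, turned HLA-B over B2M from 0.882 to 1.10 and HLA-C over B2M from 0.912 to 1.15. The proportions of immunoproteasome over constitutive subunits then stood at 0.655 for PSMB8, 1.51 for PSMB9 and 0.698 for PSMB10, within their intervals. With 1 library per group, no replicate could be left out. No paired analysis was possible because each group has 1 library. Depth limits TAP2, with 43 counts in all, and PSMB9, whose interval included 1 on halved counts.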

Other observations

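Genes around TAP1 and PSMB9 on chromosome 6 were also read. Within 250 kb of the TAP1 start, HLA-DMA (30 and 65 counts) had a ratio above 2, but reached 1 CPM only with ASO-1235, where it is high. Its neighbour HLA-DMB, at 10 and 2 counts, was not tested, with a ratio of 0.239 (0.0255 to 1.12). HLA-DQB1 was at 0.918 (0.801 to 1.05) and HLA-DQA2 at 1.09 (0.701 to 1.70). BRD2, a chromatin reader gene at 10312 and 8770 counts, had a ratio of 1.02 (0.988 to 1.05). The intervals of HLA-DMB, HLA-DQB1, HLA-DQA2 and BRD2 all included 1. HLA-DOA, HLA-DOB and HLA-DPB1 were at 0 counts in both libraries. The non-coding gene HCP5 of the class I region was also listed at 0 in both.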
